A study of Tachycineta bicolor with 20 samples.

Results

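The Day 0 ovaries are the 11 libraries from adult female tree swallows (Tachycineta bicolor) sampled at the peak of a competition experiment, of 20 ovary libraries in all. Their labels alone decided which libraries belong to this set, though the comparison was chosen with earlier results of these data known. In the 6 experimental birds, competition among wild birds had been raised by removing nest boxes temporarily. The 5 control birds were date-matched, wild and not manipulated. Each library came from the ovary of a separate bird, and no genotype, age or cell sort is given in the labels. RNA sequencing counts were available for 14782 transcripts, whose IDs carry no gene names.

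Tree swallows nest in cavities they cannot dig themselves, and females fight for them. The bird ovary holds follicles at many stages of growth. In each follicle, granulosa and theca cells surround the oocyte and make progesterone, androgens and estrogens, some of which enter the yolk. A whole ovary is therefore a mixture of oocytes, steroid-making cells, stroma and blood. In such bulk RNA, fewer cells of a type and less RNA per cell cannot be told apart. Markers of these cell types and the steroid synthesis genes could not be looked up here, because 0 of 25 symbols occur in the IDs, so the labelled tissue was not checked against its defining markers.

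Total counts ran from 8304445 to 13856417 in the controls and from 5818117 to 12089161 in the experimental birds. The difference in depth, 8560733 ± 2531933 (SD, n = 6) against 11288674 ± 2264711 (SD, n = 5), did not pass an exact two-sided permutation test (p = 0.0974, adjusted over 3 library measures 0.292). At equal depth, 14282 ± 102 (SD, n = 6) transcripts had a count in experimental birds and 14358 ± 86.2 (SD, n = 5) in controls (exact permutation p = 0.219, adjusted 0.328). The 10 most abundant transcripts held 5.18% ± 0.41 (SD, n = 6) and 4.94% ± 0.58 (SD, n = 5) of counts (exact permutation p = 0.448, adjusted 0.448). The first principal component of the tested transcripts held 33.9% of their variance. Experimental birds 3 and 1 and control bird 5 stood apart at its high end, with scores of 122, 99.0 and 72.0, where the other 8 birds lay between -62.3 and 1.46. The first component therefore cut across the 2 groups. The counts and class results that these 3 birds moved most are also given without them. The second component held 13.4% of the variance and came closer to the groups. On it, experimental birds 1, 2, 3, 4 and 6 scored from -47.0 to -30.2, below all controls (-3.80 to 78.2). Experimental bird 5 scored 24.7. It had the largest total of the experimental birds (12089161 counts). Control birds 1 and 2, with the largest totals of all (13244184 and 13856417), had the highest scores (78.2 and 55.5). Experimental bird 4 (11031100 counts, score -47.0) and control bird 5 (8304445 counts, score 32.2) did not follow this order of depth. Neither the scores nor their relation to depth was tested.

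With edgeR, no transcript passed between experimental and control birds at the peak of competition. Of 13397 transcripts with enough counts to test, 0 (0%) were called by edgeR's quasi-likelihood test at a Benjamini-Hochberg adjusted p under 0.05, and the smallest adjusted p was 0.651. Before adjustment, 833 transcripts (6.22%) had a p under 0.05, of which 400 (2.99%) were higher in experimental birds and 433 (3.23%) were lower. If no transcript differed, a share of about 0.05 would be under that p on average. Without the 3 birds that stood apart these counts were 0 called, 487 higher and 501 lower. DESeq2, a count test with another model of the spread, called 17 of 13375 transcripts (0.127%), 6 higher and 11 lower, and limma-voom called 0. All 17 had an unadjusted edgeR p under 0.05, and 11 of them did not overlap between the groups.

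The estimated differences were small for most transcripts. The median size of the log2 fold change was 0.17, against a median standard error of 0.22. For 79.0% of transcripts the 95% interval lay within a 2-fold change in either direction. Estimates past 2-fold were found for 267 transcripts (1.99%), 43 higher and 224 lower in experimental birds. This excess of lower estimates was present in each fit that left out 1 bird, with 38 to 123 higher and 165 to 319 lower. The count of 123 higher was reached without control bird 5, and without the 3 birds that stood apart 80 were higher and 329 lower.

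Individual transcripts showed the spread behind these counts. The transcript tree_swallow008290t1_sg0.0 had the smallest p of all. Its level in CPM (counts relative to the library's total, scaled by TMM factors, which correct for composition) was 0.896, 0.926, 1.60, 1.73 and 1.81 in the controls. In experimental birds the lowest value was 3.02 CPM, the median 6.62 CPM and the highest 10.1 CPM. Every experimental bird thus lay above every control. The log2 fold change was 2.17 (SE 0.36, edgeR adjusted p = 0.651).

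The other higher transcript of smallest p, tree_swallow026443t1_sg0.0, had 0.448, 0.570, 0.469, 0.481 and 1.59 CPM in control birds 1 to 5. Experimental birds ranged from 1.06 CPM through a median of 4.38 CPM to 6.85 CPM. The groups overlapped, since control bird 5 lay above experimental bird 5. The log2 fold change was 2.59 (SE 0.51, edgeR adjusted p = 0.651), and 3.06 without control bird 5.

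Among lower transcripts, tree_swallow039601t1_sg0.0 had 2.31, 1.71, 1.97, 2.60 and 4.42 CPM in control birds 1 to 5. Experimental birds ranged from 0.335 CPM through a median of 0.765 CPM to 0.853 CPM, on 2 to 10 counts a bird. The groups did not overlap. The log2 fold change was -1.92 (SE 0.36, edgeR adjusted p = 0.651).

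The transcript tree_swallow005809t1_sg0.0 was the 1 well-counted member of this set of 4, with 385 to 2848 counts a bird. Controls had 213, 140, 148, 230 and 111 CPM, and experimental birds ranged from 55.0 CPM through a median of 88.4 CPM to 94.9 CPM. All 6 experimental birds lay below all 5 controls. The log2 fold change was -1.03 (SE 0.20, edgeR adjusted p = 0.651). Without the 3 birds that stood apart the edgeR adjusted p of these 4 transcripts ran from 0.296 to 0.536. Over all edgeR and limma-voom fits tried, including those leaving out 1 bird, it ran from 0.109 to 0.9915. DESeq2 called all 4 transcripts, at adjusted p of 0.000285 for tree_swallow008290t1_sg0.0, 0.00404 for tree_swallow026443t1_sg0.0, 0.0222 for tree_swallow039601t1_sg0.0 and 0.00678 for tree_swallow005809t1_sg0.0. They were picked for their small p in these counts, so their separation is a description and no further test. Each is the only transcript of its ID stem.

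**Figure D1:**
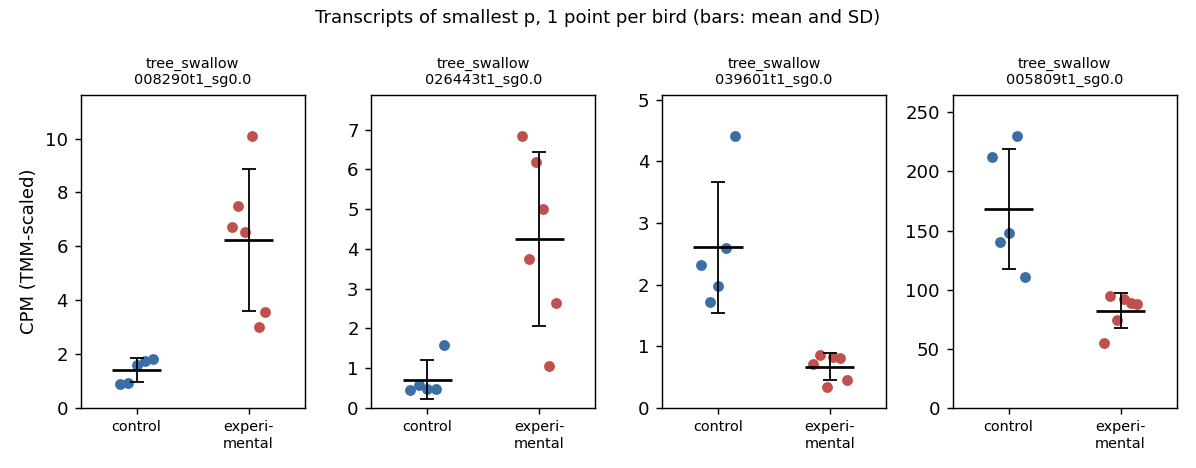
CPM (linear axis from 0) of the 2 higher and 2 lower transcripts of smallest p in each of the 5 control and 6 experimental birds of Day 0, 1 point per bird, with bars at the mean ± SD. The groups overlap only in tree_swallow026443t1_sg0.0, where control bird 5 (1.59 CPM) lies above experimental bird 5 (1.06 CPM).

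Few transcripts separated the 2 groups fully. For 42 transcripts (0.314%) every experimental bird lay above every control, and for 56 (0.418%) every experimental bird lay below. If the groups did not differ, each of these outcomes would have a chance of 1 in 462 for a transcript. Both shares lay above this, but transcripts vary together and the excess was not tested. Of these 98 transcripts (0.732% of those tested), 93 had an unadjusted edgeR p under 0.05. With 1 bird left out the counts were 49 to 167 higher and 71 to 141 lower, and a smaller group overlaps less by construction. The count above all controls exceeded its value with all birds by over 1.5 times without control bird 4 (78) or 5 (167) or experimental bird 3 (76), 5 (111) or 6 (69). The count below all controls did so without control bird 1 (87), 2 (103), 3 (112), 4 (89) or 5 (141) or experimental bird 3 (97) or 5 (108). Because leaving out any bird raises such counts by itself, passing 1.5 times does not show that a result rested on that bird. Without the 3 birds that stood apart 305 were above and 270 below. Those groups were smaller still, so these counts cannot be set directly beside the 42 and 56 of all birds.

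Experimental birds differed widely in how far they left the control range. A further bird no different from 5 controls would be the highest of the 6 for about 1 in 6 transcripts. It would be the lowest for about as many. Experimental bird 3 lay above the highest control for 27.7% of transcripts and below the lowest for 22.2%. Experimental bird 1 did so for 24.6% and 20.3%. Experimental bird 5 stayed closest to the controls, with 10.3% above and 10.6% below, and birds 2, 4 and 6 had 16.0% to 18.0% above and 16.1% to 18.9% below. A transcript lay above all controls in 5 of 6 experimental birds in 195 cases and below all controls in 5 of 6 in 160 cases. Within groups, the median SD of log2 CPM was 0.37 in experimental birds and 0.32 in controls, and it was larger in experimental birds for 58.3% of transcripts. This spread was not computed at equal depth or without the 3 birds that stood apart, which include experimental birds 1 and 3. The shares outside the control range were not computed at equal depth either. Experimental birds 3 and 1 had totals of 6539735 and 7190914 counts, and experimental bird 5 had 12089161. Experimental bird 2, with the smallest total (5818117), left the range for fewer transcripts than birds 3 and 1. A role of depth was not tested.

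**Figure D2:**
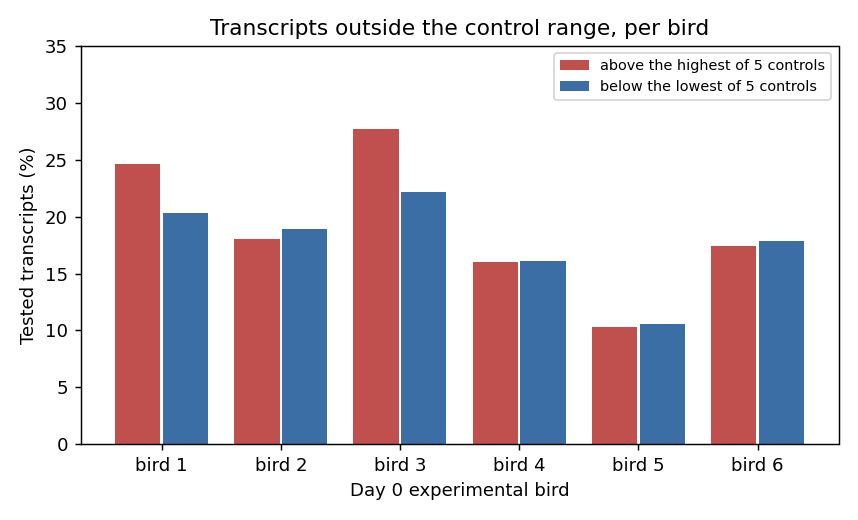
Percent of the 13397 tested transcripts (bars, axis from 0) that each of the 6 Day 0 experimental birds had above the highest or below the lowest of the 5 controls. Experimental bird 3 has the tallest bars (27.7% and 22.2%) and experimental bird 5 the shortest (10.3% and 10.6%). Libraries were not thinned to equal totals here.

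The sign of a difference was kept in all 11 fits that left out 1 bird for 8090 of the 13214 transcripts tested in each (61.2%). Among the 833 transcripts at an unadjusted p under 0.05, 295 stayed under it in all 11 fits, 148 higher and 147 lower. The share with a kept sign was 59.0% at 1 to 10 CPM, 61.9% at 10 to 100 CPM, 61.8% at 100 to 1000 CPM and 56.9% at 1000 CPM and over. Under 1 CPM only 11 of 73 transcripts were tested in every fit, and 9 of these 11 (81.8%) kept their sign.

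The direction of the differences varied with abundance. Transcripts were sorted by mean CPM over the 11 birds. This mean measures read support, since transcript lengths are not in the files and longer transcripts collect more reads. Over all transcripts, 52.1% had a higher estimate in experimental birds. In the class under 1 CPM this was 23 of 73 transcripts (31.5%). It was 40.1% of 3213 at 1 to 10 CPM, 53.8% of 7486 at 10 to 100 CPM, 62.2% of 2567 at 100 to 1000 CPM, and 42 of 58 (72.4%) at 1000 CPM and over. The median log2 fold change went from -0.20 and -0.09 in the 2 lowest classes through 0.02 and 0.06 to 0.07 in the highest.

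This order of the 5 percentages was the same in all 11 fits that left out 1 bird and without the 3 birds that stood apart. These fits share most of their birds, and the order itself was not tested over birds. With libraries thinned to the smallest total, no transcript under 1 CPM was tested, and the other classes had 40.7%, 52.3%, 60.5% and 72.4%. Scaling by library totals alone kept the order but placed each class lower or level, at 31.5%, 34.9%, 45.1%, 52.9% and 54.4%, with 44.1% overall. Whether most transcripts at 10 to 100 CPM had a higher or a lower estimate therefore depended on the scaling. Only transcripts that passed the filter on low counts are in these classes, and with no filter 38.2% of 1336 transcripts under 1 CPM were higher.

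**Figure D3:**
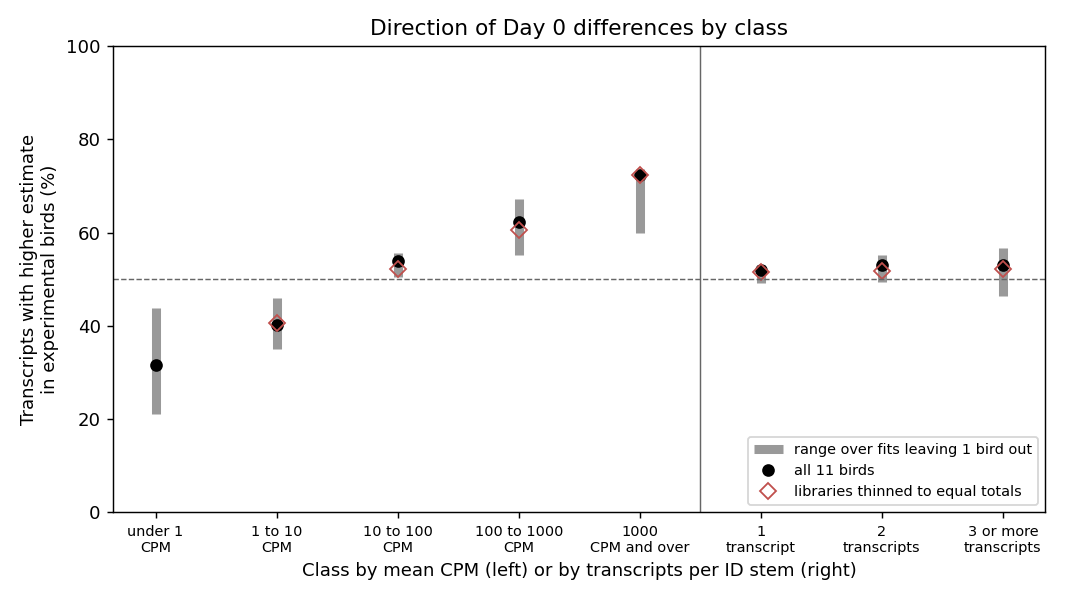
Percent of tested transcripts with a higher estimate in Day 0 experimental birds, by mean CPM (left) and by the number of transcripts of the ID stem (right), for all 11 birds (black), with libraries thinned to equal totals (open diamonds) and as a range over the fits leaving out 1 bird (grey bars). The percentage goes from 31.5% to 72.4% across the abundance classes and is 51.9% to 53.0% across the stem classes, where the grey bars cross 50%.

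Transcripts are not replicates, so each class was also compared over birds. The level of a class in a bird was the median, over its transcripts, of log2 CPM relative to the mean of the 11 birds. At 1 to 10 CPM it was 0.08, 0.15, -0.09, -0.05 and 0.21 in control birds 1 to 5 and from -0.21 to 0.12 in experimental birds. Control birds 3 and 4 were low and experimental birds 1, 3 and 5 were high, so the groups overlapped broadly. The means were -0.03 ± 0.16 (SD, n = 6) and 0.06 ± 0.12 (SD, n = 5), and the difference of -0.09 did not pass an exact two-sided permutation test (p = 0.299, adjusted over 8 classes 0.597). Without the 3 birds that stood apart it was -0.12 (exact permutation p = 0.2). Within both groups, birds low at 1 to 10 CPM were high at 100 to 1000 CPM, and the reverse. At 100 to 1000 CPM control birds 5 and 3 had -0.08 and 0.04, and experimental birds 3 and 6 had -0.07 and 0.09. At 1 to 10 CPM the same birds had 0.21, -0.09, 0.12 and -0.21. The contrast between abundance classes thus also varied among birds of the same group.

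In the class of 1000 CPM and over the controls lay close together, between -0.07 and -0.04, and experimental birds between -0.13 and 0.21. Of the 6 experimental birds, 5 lay above all controls and experimental bird 2 lay below them all. The means of 0.05 ± 0.13 (SD, n = 6) and -0.06 ± 0.012 (SD, n = 5) gave an exact permutation p of 0.115 (adjusted 0.597). The highest 2 values, 0.21 and 0.20, were those of experimental birds 1 and 3, which also stood apart on the first component. In experimental bird 3 the 10 most abundant transcripts held 5.96% of counts, against 4.75% to 5.16% in the other experimental birds. In control bird 4 they held 5.86%, with a class level of -0.04. Without experimental birds 1 and 3 and control bird 5 the difference was 0.07 in place of 0.11 (exact permutation p = 0.143, adjusted 0.32).

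No class level passed. The other 3 abundance classes had differences of -0.19 under 1 CPM, 0.01 at 10 to 100 CPM and 0.03 at 100 to 1000 CPM, with exact permutation p from 0.258 to 0.420. The value under 1 CPM was unstable: with 1 bird left out it ran from -0.50 without experimental bird 5 (exact permutation p = 0.0238, adjusted 0.190) to -0.12 without control bird 5. It was also over 1.5 times as large without control bird 1 (-0.33), control bird 4 (-0.35) or experimental bird 4 (-0.38), without the 3 birds that stood apart (-0.41, exact permutation p = 0.0571, adjusted 0.32), and with classes set by the mean of the group means (-0.39, exact permutation p = 0.0519, adjusted 0.416). The filter and the classes were set anew in each of these fits, so the transcripts under 1 CPM were not the same ones. They numbered 73 with all birds, 18 without experimental bird 5, 19 without experimental bird 4 and 139 without control bird 5. At 100 to 1000 CPM the difference ran from 0.0076 to 0.043 with 1 bird left out and was 0.051 without the 3 birds. At 1 to 10 CPM it ran from -0.13 to -0.055, and at 1000 CPM and over from 0.073 to 0.16. With all 11 birds each exact p is a share of 462 arrangements of the birds, so it cannot fall below 1 in 462. Shares of counts were taken over all 14782 transcripts, untested ones included, sorted by CPM without TMM factors. By this sorting 3314 transcripts fell at 1 to 10 CPM and 57 at 1000 CPM and over. As a share of all counts, transcripts at 1 to 10 CPM held 1.45% ± 0.15 (SD, n = 6) in experimental birds and 1.64% ± 0.21 (SD, n = 5) in controls (exact permutation p = 0.104, adjusted 0.335). Transcripts of 1000 CPM and over held 12.5% ± 0.93 (SD, n = 6) and 12.1% ± 0.54 (SD, n = 5) (exact permutation p = 0.461, adjusted 0.738).

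**Figure D4:**
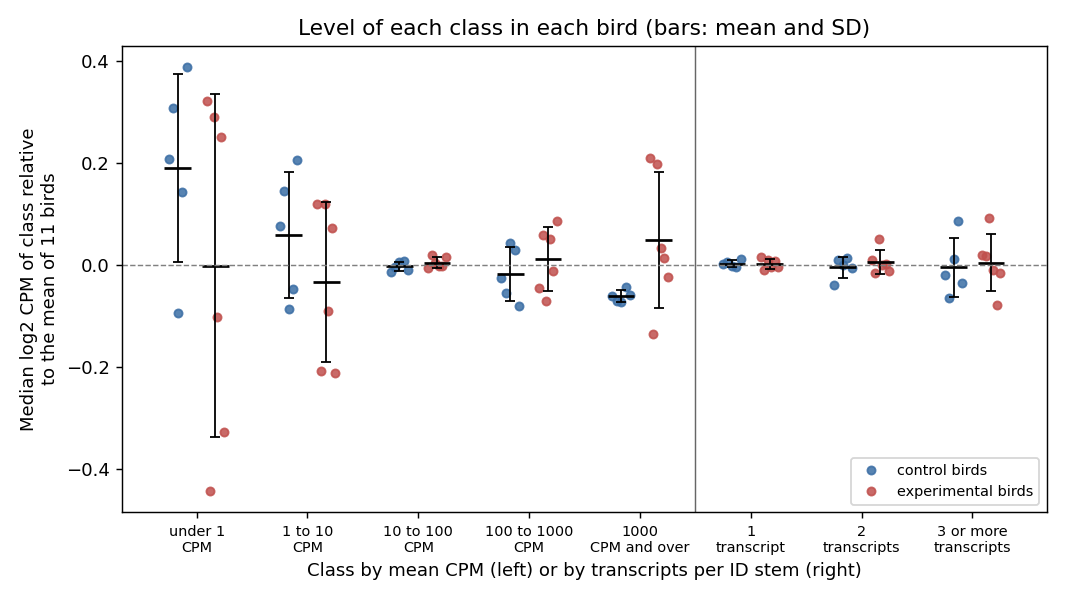
Level of each class in each Day 0 bird, as the median log2 CPM of its tested transcripts relative to the mean of the 11 birds, for 5 abundance classes (left) and 3 stem classes (right), with bars at the mean ± SD of the 5 control and 6 experimental birds. The groups overlap in every class, and at 1000 CPM and over the controls (-0.07 to -0.04) vary far less than the experimental birds (-0.13 to 0.21).

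Precision set what could be seen in each class. The median standard error of the log2 fold change was 0.52 under 1 CPM, 0.35 at 1 to 10 CPM, 0.20 at 10 to 100 CPM, 0.17 at 100 to 1000 CPM and 0.20 at 1000 CPM and over. The 95% interval lay within a 2-fold change for 46.7% of transcripts at 1 to 10 CPM and for 94.3% at 100 to 1000 CPM. Estimates past 2-fold numbered 23 higher and 141 lower at 1 to 10 CPM, 19 and 64 at 10 to 100 CPM, and 0 and 12 at 100 to 1000 CPM. At 1000 CPM and over there were 0 in either direction.

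Transcripts at an unadjusted p under 0.05 followed the same directions. At 1 to 10 CPM 41 were higher and 151 lower, at 10 to 100 CPM 270 and 233, and at 100 to 1000 CPM 86 and 47. Their share of the class was 5.98%, 6.72% and 5.18%, close to the 6.22% of all transcripts. Transcripts without overlap numbered 3 above and 18 below at 1 to 10 CPM, 28 and 29 at 10 to 100 CPM, and 10 and 8 at 100 to 1000 CPM. These are 0.654%, 0.761% and 0.701% of each class, near the 0.732% of all transcripts.

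Few transcripts were detected in 1 group only. Of 14765 transcripts with any count as deposited, 22 had counts in experimental birds only and 31 in controls only. After thinning to equal totals these were 47 and 43 of 14749. As deposited, a transcript with counts in 1 group only was present in at most 4 birds of either group. After thinning the most was 6 experimental birds and 4 controls, so that at least 1 transcript then had counts in every experimental bird and in no control. Any such transcript had control counts as deposited, which this 1 random thinning removed.

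Transcript IDs share a stem where the table lists more than 1 transcript for it, which here stands in for a gene. The table held 13412 stems, of which 12280 had 1 transcript, 966 had 2 and 166 had 3 or more. The counting rule for reads that match several transcripts of a stem is not stated, so values of the 2502 transcripts of multi-transcript stems are uncertain. Single-transcript stems had a higher estimate in 51.9% of 11073 tested transcripts, stems of 2 in 53.0% of 1798 and stems of 3 or more in 53.0% of 526. Their median log2 fold changes were 0.01, 0.02 and 0.01. These directions were not stable. With 1 bird left out the percentages ran from 49.1% to 53.1%, 49.4% to 55.1% and 46.5% to 56.6%, with the lowest value of each without experimental bird 3. Without the 3 birds that stood apart they were 50.2%, 51.3% and 47.9%, and with scaling by library totals 44.1%, 44.5% and 42.4%.

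The share at an unadjusted p under 0.05 was 6.41% for single-transcript stems, 5.95% for stems of 2 and 3.04% for stems of 3 or more, where 3 transcripts were higher and 13 lower. All 17 DESeq2 calls were transcripts of single-transcript stems, which made up 11073 of the 13397 tested by edgeR. DESeq2 gave no adjusted p to 22 of these 13397. Of them, 7 were of single-transcript stems, 3 of stems of 2 and 12 of stems of 3 or more. Transcripts without overlap made up 0.777% of those of single-transcript stems, 0.556% of those of stems of 2 and 0.380% of those of stems of 3 or more (0 above and 2 below), against 0.732% of all transcripts. With so few transcripts in the last class, these counts do not set it apart. The level per bird of each stem class differed between the groups by at most 0.01 on the log2 scale (exact permutation p from 0.502 to 0.994). With untested transcripts included, single-transcript stems held 84.0% ± 0.52 (SD, n = 6) of counts in experimental birds and 84.0% ± 0.28 (SD, n = 5) in controls.

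Within stem classes the order by abundance held in full for single-transcript stems only. Among these the percentage was 27.0% under 1 CPM, 39.6% at 1 to 10 CPM, 53.5% at 10 to 100 CPM, 61.8% at 100 to 1000 CPM and 76.2% at 1000 CPM and over. Among multi-transcript stems the 3 middle classes had 42.2%, 55.0% and 64.7%. The outer 2 classes held few such transcripts and did not follow, with 6 of 10 higher under 1 CPM and 10 of 16 at 1000 CPM and over. With counts summed per stem, edgeR called 0 of 12168 stems (0%, with 350 higher and 424 lower at an unadjusted p under 0.05). DESeq2, given the same 12168 stems, called 22, and the directions of these were not recorded.

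Transcripts of the same stem mostly went the same way. Of 1032 stems with 2 or more tested transcripts, 766 (74.2%) had all estimates of 1 sign. In the 882 stems with exactly 2, the signs matched in 676 (76.6%), the log2 fold changes had a Pearson's r of 0.717 and a Spearman's rho of 0.702 across stems, and their median absolute difference was 0.10. The 2 estimates share libraries and possibly reads, so this is a description. In 34 stems 2 or more transcripts had an unadjusted p under 0.05, and in all 34 at least 2 of these had the same direction.

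**Figure D5:**
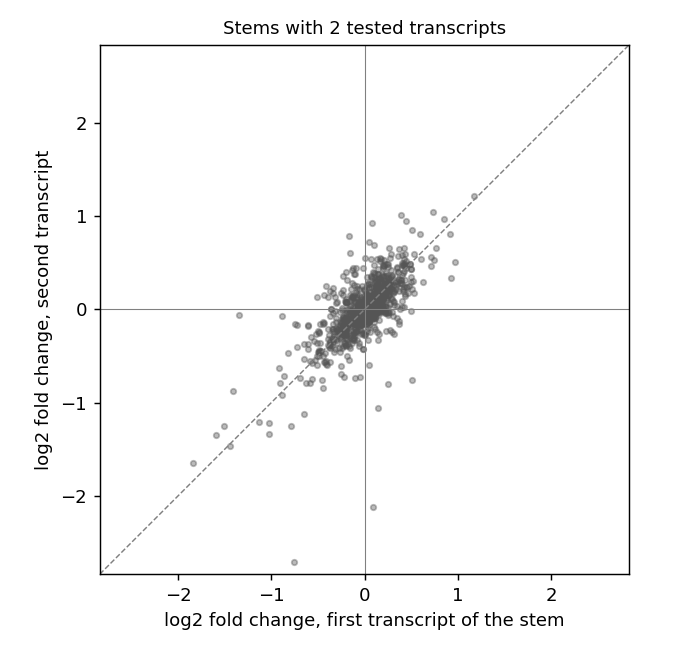
Log2 fold change of the first against the second transcript, on linear axes, for the 882 ID stems with exactly 2 tested transcripts, 1 point per stem, with a dashed line of equality. Most points lie along the line (Pearson's r 0.717) and 76.6% have the same sign in both.

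Differences in transcript usage, meaning unequal change among transcripts of 1 stem, gave no call. By edgeR's test for differential usage 0 of 1032 stems passed (0%), with 1 (0.0969%) at an unadjusted p under 0.05. Limma-voom called 0, with 7 at an unadjusted p under 0.05. If no usage differed, a share of about 0.05 of the stems would be under that p. Both counts fell far below this, so both tests were strict here. Their lack of calls cannot show that usage was equal. A limma test on the ratio of transcripts in each bird also called 0. In that test 41 stems (3.97%) had an unadjusted p under 0.05, and the lowest value after adjustment was 0.240.

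The stem of smallest p in edgeR's usage test, tree_swallow001006, has 3 transcripts. Its minor transcript tree_swallow001006t3_sg0.2 had 1.64, 2.49, 1.501, 2.02 and 2.72 CPM in control birds 1 to 5. Experimental birds ranged from 1.71 CPM through a median of 3.61 CPM to 10.4 CPM, and the groups overlapped. It made up 2.82% ± 2.11 (SD, n = 6) of the stem's counts in experimental birds and 1.29% ± 0.43 (SD, n = 5) in controls. The highest shares, 6.44% and 4.02%, were again those of experimental birds 3 and 1. Its main transcript tree_swallow001006t2_sg0.1 stood at 136 CPM ± 23.7 (SD, n = 6) in experimental birds and at 139 CPM ± 16.3 (SD, n = 5) in controls. The adjusted p of the stem was 0.99996 in edgeR's usage test and 0.975 in the limma ratio test, where its unadjusted p was 0.322.

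The next stem, tree_swallow012593, has 2 transcripts. The minor one, tree_swallow012593t1_sg1.1, had 7.99, 6.41, 0.563, 3.66 and 3.17 CPM in control birds 1 to 5. Experimental birds ranged from 0.820 CPM through a median of 2.25 CPM to 3.35 CPM. Control birds 1 and 2 were high and control bird 3 was lowest of all 11, so the groups overlapped. Its share of the stem was 1.495% ± 0.62 (SD, n = 6) in experimental birds and 3.37% ± 2.69 (SD, n = 5) in controls, with an adjusted p of 0.99996 in edgeR's usage test. In the limma ratio test the stem's p was 0.154 (adjusted 0.975).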

How the data were processed

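Per the labels' protocols, field-frozen ovaries gave Trizol-extracted RNA for stranded mRNA libraries. Per the submitters' processing notes, the tools were Bowtie2 2.4.2, fastp 0.20.1, SAMtools and CASAVA. Not given in the sources used here are their roles, the reference and how reads were counted or assigned to a strand. The authors deposited unnormalized whole-number counts, 1 column per bird. A line naming no transcript, at 0 counts, was left out. Columns were matched to birds by title.

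Only the 11 Day 0 birds entered the fits. filterByExpr (minimum count 10, minimum total 15) left 13397 transcripts and removed 1385, which held at most 0.145% of a library's counts. TMM factors and edgeR 4.0.16 (R 4.3.3) robust quasi-likelihood tests were used with 2 group means and no covariate (common biological coefficient of variation 0.319). Standard errors are Wald errors from that fit. CPM is relative to the retained counts. Single values per bird were tested by exact two-sided permutation. Usage was tested with diffSpliceDGE (Simes p per stem), voom diffSplice, and limma on log2 ratios with an offset of 0.5. Other tools were DESeq2 1.42.0 and limma 3.58.1. The edgeR transcript test, the 3 usage tests and the class levels were tested on simulated data.

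Named IDs are the 2 of smallest p in each direction and the 2 stems of smallest p in edgeR's usage test. The comparison, classes, rules and tests were chosen with earlier results of these data known. Alternatives were RLE factors, no filter, 1 CPM in 5 libraries, thinning, other tests, an adjusted p under 0.10, a prior count of 0.5 in place of 2, and each bird left out. Leaving out the 3 birds that stood apart, the log2 ratio test, counts past 2-fold, class levels with no filter or with classes from the mean of the group means, and percentages scaled by library totals were added after seeing the data. No library was treated as a duplicate, since chi-square divided by its degrees of freedom was 13.1 to 93.1 for pairs of birds of the same group.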

Additional observations from a re-analysis of the deposited data

Results flagged for a closer look

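In 46 checks of a group for 1 bird far from the others, 2 values stood out, where chance gives about 2.3. Control bird 5 had 1.59 CPM of tree_swallow026443t1_sg0.0, against 0.448 to 0.570 CPM in the other 4 controls. Experimental bird 3 had 5.96% of its counts in the 10 most abundant transcripts, against 4.75% to 5.16% in the other 5 experimental birds. Control bird 4 had 5.86%.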

How the results depend on the processing

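edgeR called 0 transcripts, 0 stem sums and 0 usage differences under every alternative tried with it, including an adjusted p under 0.10 for transcripts and usage. DESeq2 called 17 of 13375 transcripts, and 22 of the 12168 stem sums given to it. No paired analysis was possible because the labels number no replicates and tie no bird to another. All 272 repeats of the class and library tests missed an adjusted p of 0.05 (smallest 0.143).

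The percentage of transcripts higher was 50.2% with no filter, 50.8% with the stricter filter, 44.1% with library totals, 50.2% without the 3 birds that stood apart, and 49.1% to 53.3% with 1 bird left out. Past 2-fold, 134 were higher and 569 lower with no filter, 80 higher without the 3 birds, and 38 to 123 higher with 1 bird left out. Without overlap there were 305 higher and 270 lower without the 3 birds, and 49 to 167 and 71 to 141 with 1 bird left out. Smaller groups overlap less by construction, so counts without overlap rise when birds are left out.

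In 49 of the 272 repeats the sign turned, mostly in classes near 0; the cause was not tested. For single-transcript stems the level difference was -2.06e-05 with a prior count of 0.5, -0.0020 with RLE, -0.048 with library totals, -0.0020 thinned and -0.011 with no filter, and -0.012 to 0.0031 with 1 bird left out. For stems of 2 it was -0.038 with library totals and -2.99e-05 without the 3 birds (-0.0076 to 0.016 with 1 bird left out). For stems of 3 or more it was -0.039 with library totals, -0.0081 thinned and -0.0067 with no filter (-0.025 to 0.025). At 10 to 100 CPM it was -0.041 and at 100 to 1000 CPM -0.020 with library totals, and at 10 to 100 CPM -0.0062 to 0.0084 with 1 bird left out. Differences in percent of counts ran from -0.17 to 0.11 for single-transcript stems, -0.063 to 0.13 for stems of 2 and -0.12 to 0.096 for stems of 3 or more.

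With thinned libraries tree_swallow039601t1_sg0.0 was not tested. Depth limits the class under 1 CPM most, where 5.48% of intervals lay within a 2-fold change.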
